A study of Homo sapiens with 27 samples.

Results

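The microRNAs of the miR-10 and miR-196 families that lie inside the human HOX gene clusters were followed in OCI-AML3 cells, an acute myeloid leukaemia line, with the chemokine SDF-1α or the CXCR4 antagonist POL6326. The members were the probes for mature miRNAs whose names begin with hsa-miR-10a, hsa-miR-10b, hsa-miR-196a or hsa-miR-196b, star strands included. This rule gave 7 of the 774 human miRNA probes, namely hsa-miR-10a, hsa-miR-10a*, hsa-miR-10b, hsa-miR-10b*, hsa-miR-196a, hsa-miR-196a* and hsa-miR-196b. No measured value entered the rule. The star marks the strand opposite the one that usually accumulates. The study consisted of 27 miRNA arrays in 9 groups of 3. The control group was untreated cells taken at 0 h, and the treated groups received SDF-1α (100 ng/mL) or POL6326 (at 250 nM) for 1, 2, 4 or 8 h. All groups were the same unmodified cell line, grown in RPMI medium with serum. Nothing in the labels tells separate cultures from repeat arrays of 1 culture. The p-values therefore measure only the spread between these arrays, which may be technical.

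HOX genes encode homeodomain transcription factors that set position along the body axis in the embryo and are used again in early blood cells. They stand in clusters, and each cluster carries miRNA genes between its coding genes: miR-10 genes in the HOXB and HOXD clusters, miR-196 genes in HOXA, HOXB and HOXC, and miR-615 in HOXC. Several of these miRNAs target messages of HOX genes, miR-196 with HOXB8 as the textbook case. OCI-AML3 carries mutant NPM1, a class of leukaemia with high HOXA and HOXB gene expression in which miR-10a, miR-10b and the miR-196 miRNAs are often abundant. SDF-1α is the ligand of CXCR4, the receptor that holds blood and leukaemia cells in the marrow, and POL6326 blocks that receptor.

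The mature sequences show which members share a seed, the stretch of bases 2 to 8 by which a miRNA pairs with its targets. RefSeq's table for GRCh38.p14 held 6 of the 7 members, printed 5′ to 3′ with the seed in capitals, and miR-10b is given by name only.
miR-10a: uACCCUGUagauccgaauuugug
miR-10a*: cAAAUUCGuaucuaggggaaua
miR-10b*: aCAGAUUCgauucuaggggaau
miR-196a: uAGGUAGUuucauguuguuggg
miR-196a*: cGGCAACAagaaacugccugag
miR-196b: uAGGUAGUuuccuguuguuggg
Of these 6, only miR-196a and miR-196b shared a seed, AGGUAGU. They were identical at 21 of 22 bases, the difference being A12C, counted from 1 at the 5′ end with the base of miR-196a first. Probe sequences were not used here, and cross-hybridisation between this pair of probes was not tested.

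The members' genes lie on 4 chromosomes. Mature miR-10a lies at chr17:48579904-48579926 on the minus strand, between HOXB4 and HOXB5 and within the span of HOXB3. Mature miR-10b* lies at chr2:176150368-176150389 on the plus strand, between HOXD4 and HOXD8. Mature miR-196a comes from 2 loci with the same sequence, at chr17:48632532-48632553 on the minus strand between HOXB9 and HOXB13, and at chr12:53991762-53991783 on the plus strand between HOXC9 and HOXC10. Its probe cannot tell those loci apart. Mature miR-196b lies at chr7:27169528-27169549 on the minus strand, between HOXA9 and HOXA10. The array also held 4 other HOX-embedded probes, for the precursors mir-196a-1 and mir-196b and for miR-615-3p and miR-615-5p. The hairpins of those precursors are shown because their probes were read separately from the mature ones, with the mature miR-196 sequence in capitals.
MIR196A1: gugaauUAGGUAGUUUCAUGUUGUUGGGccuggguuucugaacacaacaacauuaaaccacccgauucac
MIR196B: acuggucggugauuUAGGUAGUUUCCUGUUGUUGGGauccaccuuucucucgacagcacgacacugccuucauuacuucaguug

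The deposited signals ran up to 15.46 and were read as log2 signals, a scale inferred from their range. Each array had a block of equal low values, its floor, at 4.27 to 4.43, and its detection limit was taken as the lowest signal above that block. Arrays differed in how much they detected, with 210 to 593 probes above the floor and limits of 4.27 to 7.42. The SDF-1α 1 h arrays detected the fewest (210 to 241 probes, limits 6.88 to 7.42) and the POL6326 4 h arrays among the most (482 to 593 probes, limits 4.27 to 4.45), while the 3 control arrays had 560, 304 and 257. Of 6 blood and myeloid marker miRNAs, 4 were above the floor on all 27 arrays, among them miR-223 with a median of 15.12 and miR-155 with 11.19, whereas miR-142-3p was above it on 4 arrays and miR-181a on 10. Markers of other cell types also gave signal. The liver marker miR-122 was above the floor on all arrays, with a median of 8.07. The muscle markers miR-206 and miR-133b were above it on 27 and 26 arrays, miR-1 on 9 and miR-133a on 5. The stromal marker miR-145 was above it on 26 arrays (median 7.51), miR-199a-5p on 5 and miR-143 on 0. Both neural markers and 2 of 4 epithelial markers were above it on at least 14 arrays. The part of these signals in the results was not tested.

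The members fell into 3 levels of detection. Every array had miR-10a and miR-10b above its floor, with medians of 9.21 and 8.90. The miR-10b* probe was above it on 24 arrays, miR-196a on 17 and miR-196b on 8. The miR-10a* probe was above it on 5 arrays and miR-196a* on 2, and neither was called in any comparison of the reported fit. The highest miR-10a* signal was 6.15, on POL6326 2 h array 3, and the other two arrays of that group were at the floor. Signals of different probes depend on the probe, so these medians do not rank the miRNAs by abundance.

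**Figure D1:**
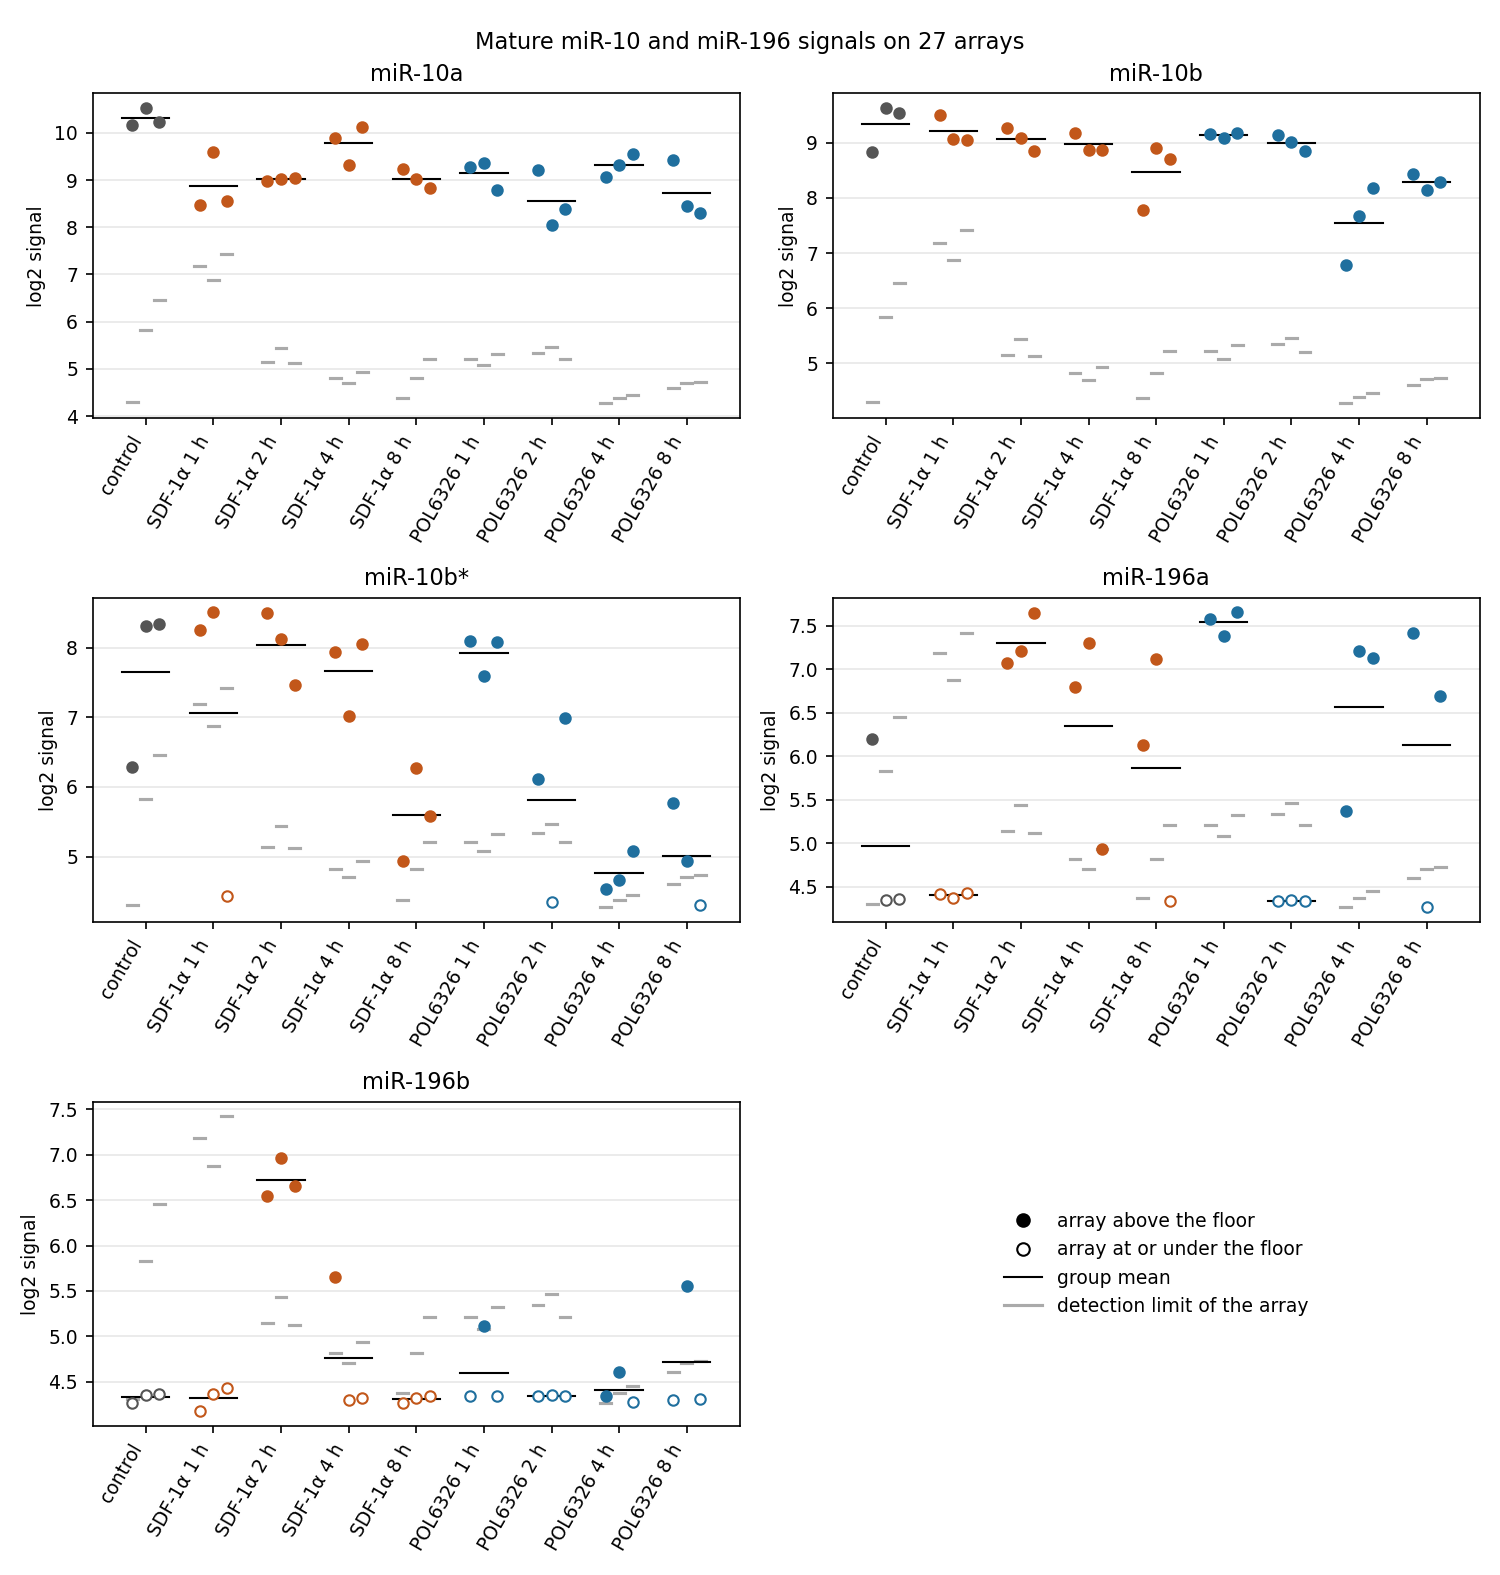
Log2 signal (vertical axes, which do not start at 0) of 5 mature HOX-embedded miRNAs on each of 27 arrays in 9 groups (horizontal axes). Filled points are above the array's floor, open points at or under it, black lines are group means and grey lines the detection limits; the 3 control arrays have the highest miR-10a signals, and miR-196b is above the floor on all 3 arrays only with SDF-1α at 2 h.

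For miR-10a the question was whether treated cells differed from untreated ones, and miR-10a was lower in both treatments. miR-10a is transcribed from within the HOXB cluster. The 3 control arrays read 10.16, 10.52 and 10.24. With SDF-1α the signals were 8.46, 9.60 and 8.57 at 1 h, 8.98, 9.02 and 9.04 at 2 h, 9.90, 9.32 and 10.11 at 4 h, and at 8 h 9.24, 9.02 and 8.83. With POL6326 they were 9.27, 9.37 and 8.79 at 1 h, 9.21, 8.04 and 8.38 at 2 h, 9.07, 9.32 and 9.54 at 4 h, and at 8 h 9.43, 8.45 and 8.31. All 24 treated arrays lay below the lowest control array, a separation that 0.775% of the 774 probes showed in that direction. Averaged over the 4 times, miR-10a fell by 1.13 (SE 0.26, n = 12 against 3, limma adjusted p = 0.0270), or 2.19-fold, with SDF-1α. It was 1 of 7 members called there, against 2.84% of all probes in either direction and 1.94% lower. With POL6326 miR-10a fell by 1.37 (SE 0.26, n = 12 against 3, limma adjusted p = 0.0037), or 2.59-fold. It was again 1 of 7 members called, against 3.75% of all probes and 1.94% lower.

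Because untreated cells were sampled at 0 h only, a treatment and the hours spent in culture cannot be told apart in any comparison with control, and both treatments share the 3 control arrays. Fewer cells with a miRNA and less of it per cell cannot be told apart in RNA from a whole culture. The SDF-1α call on miR-10a ended when control array 1 (difference -1.20, limma adjusted p = 0.0754) or control array 2 (-1.03, limma adjusted p = 0.139) was left out. It also ended with quantile normalization (-0.97, limma adjusted p = 0.0535) and without the 1 h arrays (-1.03, limma adjusted p = 0.0570). The POL6326 call held in all 11 alternative settings and without any 1 of the 27 arrays, with adjusted p from 0.00138 to 0.0428 over those 27 fits.

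Time by time, the differences of miR-10a from control were uneven. With SDF-1α they were -1.43, -1.30, -0.53 and -1.28 at 1, 2, 4 and 8 h (SE 0.33 each, limma adjusted p = 0.0229, 0.0387, 0.589 and 0.0466). With POL6326 they were -1.16, -1.76, -1.0 and -1.58 (SE 0.33 each, limma adjusted p = 0.0476, 0.0016, 0.0919 and 0.0123). In both series the smallest difference was at 4 h and did not pass the threshold of 0.05. At 1 h members called numbered 1 of 7 for SDF-1α, against 3.88% of probes, and 1 of 7 for POL6326, against 4.78%. At 2 h they numbered 2 of 7 for SDF-1α (miR-10a and miR-196b), against 2.58%, and 1 of 7 for POL6326, against 4.26%. At 4 h they numbered 0 of 7 for SDF-1α, against 1.94%, with none at an unadjusted p under 0.05, and 1 of 7 for POL6326 (miR-10b), against 4.39%. At 8 h they numbered 1 of 7 for SDF-1α, against 2.2%, and 1 of 7 for POL6326, against 3.1%. Several of these single-time calls on miR-10a were narrow. Those for SDF-1α at 2 h and 8 h and POL6326 at 1 h were kept in 18, 11 and 7 of the 27 fits that left out 1 array. The SDF-1α 1 h call ended without control array 2, SDF-1α 1 h array 1 or array 3 (limma adjusted p = 0.0824, 0.0811 and 0.0905). The POL6326 8 h call ended without control array 2, POL6326 8 h array 2 or array 3 (limma adjusted p = 0.0579, 0.0523 and 0.0658).

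**Figure D2:**
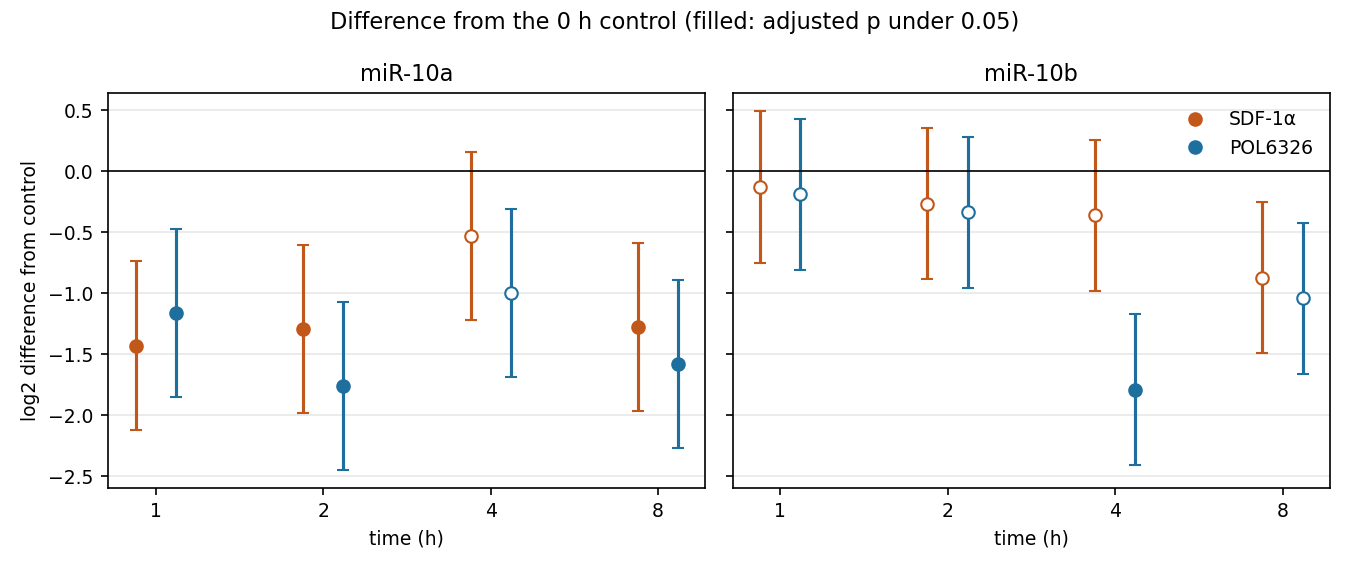
Log2 difference of miR-10a and miR-10b from the 0 h control (vertical axes) by time in hours (horizontal axes) for SDF-1α and POL6326, 3 arrays a group, with 95% confidence intervals of the limma fit. Filled points have an adjusted p under 0.05; all 8 miR-10a differences are below 0, the smallest of each treatment at 4 h, and for miR-10b only POL6326 at 4 h passes.

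The group means of miR-10a ranked from control (10.31 ± 0.19, SD, n = 3) through SDF-1α 4 h (9.78 ± 0.41), POL6326 4 h (9.31 ± 0.24), POL6326 1 h (9.15 ± 0.31), SDF-1α 8 h (9.03 ± 0.21), SDF-1α 2 h (9.01 ± 0.03), SDF-1α 1 h (8.88 ± 0.63) and POL6326 8 h (8.73 ± 0.61) to POL6326 2 h (8.55 ± 0.60). Of the 8 steps between neighbours, the ranges of the arrays overlapped in 7, the exception being control and SDF-1α 4 h. Between the treatments miR-10a did not pass at any time, the POL6326 minus SDF-1α differences being 0.27, -0.46, -0.47 and -0.30 at 1, 2, 4 and 8 h (limma adjusted p = 0.737, 0.640, 0.372 and 1). Over the mean of 4 times the difference was -0.24 (95% interval -0.59 to 0.10, limma adjusted p = 0.347).

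miR-10b, the HOXD-cluster member of the family, was lower with POL6326 than with SDF-1α at 4 h. The SDF-1α arrays at that time read 9.18, 8.88 and 8.88, and the POL6326 arrays 6.78, 7.67 and 8.19. All 3 POL6326 arrays lay below all 3 SDF-1α arrays, as 15.6% of all probes did at this time. The difference was -1.43 (SE 0.30, n = 3 and 3, limma adjusted p = 0.0062), a 2.69-fold lower signal with POL6326. It was 1 of 2 members called at 4 h, both lower, against 9.82% of all probes in either direction and 6.07% lower. At 1, 2 and 8 h the differences were -0.06, -0.07 and -0.17 (limma adjusted p = 0.920, 0.995 and 1), and the groups overlapped.

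The other arrays of miR-10b varied less. Control arrays read 8.84, 9.63 and 9.54. SDF-1α arrays read 9.50, 9.08 and 9.05 at 1 h, 9.26, 9.09 and 8.85 at 2 h, and at 8 h 7.78, 8.90 and 8.71. POL6326 arrays read 9.17, 9.09 and 9.18 at 1 h, 9.14, 9.01 and 8.85 at 2 h, and at 8 h 8.44, 8.15 and 8.30. The lowest signals were thus at 4 h and 8 h with POL6326 and on SDF-1α 8 h array 1. Against control, miR-10b with POL6326 at 4 h fell by 1.79 (SE 0.30, limma adjusted p = 0.0015), 3.46-fold, without overlap, which 8.01% of all probes showed in that direction. The mean of 4 times with POL6326 differed from control by -0.84 (SE 0.23, limma adjusted p = 0.0503), past the threshold in 7 of 11 alternatives and in 5 of 27 fits without 1 array. The mean of 4 times between treatments differed by -0.43 (SE 0.15, limma adjusted p = 0.0725). In the order of group means, from control (9.34 ± 0.43, SD, n = 3) down to POL6326 8 h (8.29 ± 0.14) and POL6326 4 h (7.55 ± 0.71), all 8 neighbouring steps overlapped.

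The opposite strand, miR-10b*, was the other member called at 4 h. SDF-1α arrays read 7.94, 7.01 and 8.05 and POL6326 arrays 4.53, 4.67 and 5.08. The groups did not overlap, as 15.6% of all probes also lay lower at this time, and the POL6326 signals were close to the floor. The difference was -2.91 (SE 0.85, n = 3 and 3, limma adjusted p = 0.0360), and it no longer passed when any of the 6 arrays was left out (limma adjusted p up to 0.115). Elsewhere the arrays of a group often disagreed. Control arrays read 6.29, 8.31 and 8.34. SDF-1α arrays read 8.26, 8.51 and the floor at 1 h, 8.50, 8.12 and 7.47 at 2 h, and at 8 h 4.93, 6.27 and 5.58. POL6326 arrays read 8.09, 7.59 and 8.08 at 1 h, 6.11, the floor and 6.98 at 2 h, and at 8 h 5.77, 4.94 and the floor. The lowest group means of miR-10b* were those of SDF-1α at 8 h and POL6326 at 4 h and 8 h, and single arrays at the floor also occurred at SDF-1α 1 h and POL6326 2 h. At 2 h the POL6326 arrays lay below the SDF-1α arrays, as 8.4% of all probes did. The difference of -2.22 (SE 0.85) did not pass (limma adjusted p = 0.225). The SD within a group reached 2.28 at SDF-1α 1 h, where 1 of 3 arrays was at the floor. That SD takes the floor value as the signal of array 3, whose detection limit was 7.42 and whose level under it is unknown. No neighbours in the order of group means were separated.

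At 4 h, where miR-10b and miR-10b* were lower with POL6326, the treatments also differed in how much their arrays detected. Across 27 arrays, which share their normalization, the signal of miR-10b had a Pearson correlation of -0.80 with the count of probes an array detected above its floor, and miR-10b* of -0.51. The median correlation over the 174 probes above the floor on all arrays was -0.36, and miR-10a had 0.18. The POL6326 4 h arrays, with 482 to 593 probes above the floor, detected more than the SDF-1α 4 h arrays, with 362 to 381. With that number as a covariate the 4 h difference of miR-10b was -0.79 (limma adjusted p = 0.120) and that of miR-10b* was -2.08 (limma adjusted p = 0.423). The counts of the treatments did not overlap at 4 h, so treatment and array detection cannot be told apart there. The part of array detection in these differences was otherwise not tested. With only the 2 groups compared in the fit, the 4 h difference of miR-10b had a limma adjusted p of 0.110, and with all arrays raised to 1 common detection limit that of miR-10b* was -0.38 (limma adjusted p = 0.311).

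**Figure D3:**
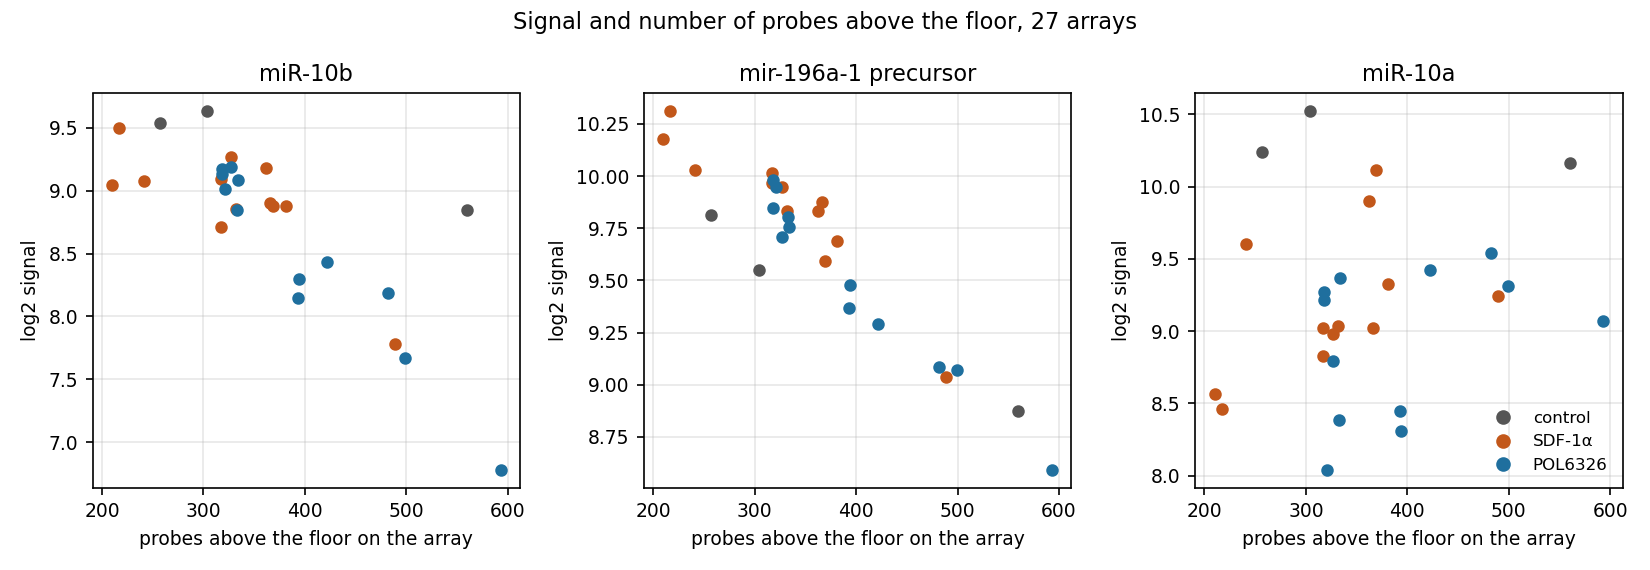
Log2 signal of miR-10b, the mir-196a-1 precursor and miR-10a (vertical axes) against the number of probes above the floor (horizontal axes) on 27 arrays, coloured by treatment. The miR-10b and mir-196a-1 precursor signals are lower on arrays with more probes above the floor (Pearson -0.80 and -0.94), and miR-10a shows little relation (0.18).

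miR-196a was above the floor in different treatments at 1 h and 2 h. At 1 h it read 7.58, 7.39 and 7.66 with POL6326 and was at the floor on every SDF-1α array. At 2 h the SDF-1α arrays read 7.08, 7.21 and 7.64, and all 3 POL6326 arrays were at the floor. With floor values counted as the lowest level, no arrays overlapped at either time. This was also true of 7.36% of all probes at 1 h (higher with POL6326) and 8.4% at 2 h (lower). At 1 h miR-196a was at least 1.30-fold higher with POL6326 (n = 3 and 3, limma adjusted p = 0.0284), taking the mean SDF-1α detection limit as the lower level. At 2 h it was at least 3.92-fold lower with POL6326 (n = 3 and 3, limma adjusted p = 0.0334). The bound at 1 h is weak because the SDF-1α 1 h limits of 6.88 to 7.42 reached into the range of the POL6326 signals. The limit of SDF-1α 1 h array 3, 7.42, lay above POL6326 1 h array 2 at 7.39. It is therefore not shown that every POL6326 1 h array exceeded every SDF-1α 1 h array. The POL6326 2 h limits, 5.21 to 5.46, lay well under the SDF-1α 2 h signals. The SDF-1α 1 h limits also reached into the range of the SDF-1α 2 h signals. A rise of miR-196a with SDF-1α between those times is therefore not shown.

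At 1 h miR-196a was the 1 member of 7 called, against 3.49% of all probes in either direction and 3.1% higher. Both calls ended when any of the 6 arrays compared was left out (limma adjusted p up to 0.0785 at 1 h and 0.116 at 2 h). With 1 common detection limit the miR-196a differences were 0.13 at 1 h and -0.07 at 2 h (limma adjusted p = 0.434 and 0.647), with the detection covariate 2.63 at 1 h (0.0838), and with quantile normalization -2.79 at 2 h (0.0562). At 4 h the arrays read 6.80, 7.30 and 4.94 with SDF-1α and 5.37, 7.21 and 7.13 with POL6326. At 8 h they read 6.14, 7.12 and the floor with SDF-1α and 7.42, the floor and 6.69 with POL6326. The groups overlapped at both late times. Differences there were 0.23 and 0.26 (limma adjusted p = 0.919 and 1), and turned to -0.07 and -0.07 with median centring. Control array 1, the control array with the lowest detection limit (4.30), read 6.20, and the other two were at the floor. The group means ran from 7.54 ± 0.14 (SD, n = 3) at POL6326 1 h and 7.31 ± 0.30 at SDF-1α 2 h down to the floor at SDF-1α 1 h and POL6326 2 h, with all 8 neighbouring steps overlapping.

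miR-196b, from the HOXA cluster and with the same seed, was above the floor on all 3 arrays in 1 group only, SDF-1α 2 h. It read 6.54, 6.96 and 6.65 there, and all 3 POL6326 2 h arrays and all 3 control arrays were at the floor. It also rose above the floor on SDF-1α 4 h array 1 (5.65), POL6326 1 h array 2 (5.11), POL6326 8 h array 2 (5.56) and 2 POL6326 4 h arrays (4.34 and 4.61). The SDF-1α 2 h group stood apart from the next group in the order of means, SDF-1α 4 h, without overlap, and the other 7 steps overlapped. At 2 h miR-196b was at least 2.60-fold lower with POL6326 than with SDF-1α (n = 3 and 3, limma adjusted p = 0.0002). With miR-196a it made 2 of 7 members called, both lower, against 4.13% of all probes in either direction and 2.07% lower. Against control the SDF-1α 2 h signal was at least 2.28-fold higher (limma adjusted p = 0.0003), without overlap, which 7.24% of all probes showed in that direction. These calls on miR-196b at 2 h held in all 7 alternatives that kept the probe and in all 27 fits without 1 array. The arrays of SDF-1α 2 h and POL6326 2 h detected similar numbers of probes, 317 to 332 and 318 to 333.

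The mean of 4 times includes this 2 h difference of miR-196b. POL6326 minus SDF-1α was -0.51 (SE 0.16, n = 12 and 12, limma adjusted p = 0.0477), and the 12 arrays of each treatment overlapped. It was the 1 member of 7 called for the mean, against 9.82% of all probes in either direction and 4.39% lower. At 1 h and 8 h no SDF-1α array had miR-196b above the floor and 1 of 3 POL6326 arrays did, which gives no size for the difference, and neither time passed (limma adjusted p = 0.713 and 0.827). At 4 h the difference was -0.35 (limma adjusted p = 0.512), with 1 SDF-1α and 2 POL6326 arrays above the floor. The mean therefore rests on fitted values that include arrays at the floor. The call on the mean ended in 23 of the 27 fits that left out 1 array, with adjusted p up to 0.0943. It also ended with the detection covariate, with only the groups compared and without the 4 h arrays (limma adjusted p = 0.171, 0.0625 and 0.0797). At 8 h between the treatments limma called 0 of 7 members, with 0 at an unadjusted p under 0.05, against 1.03% of all probes.

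**Figure D4:**
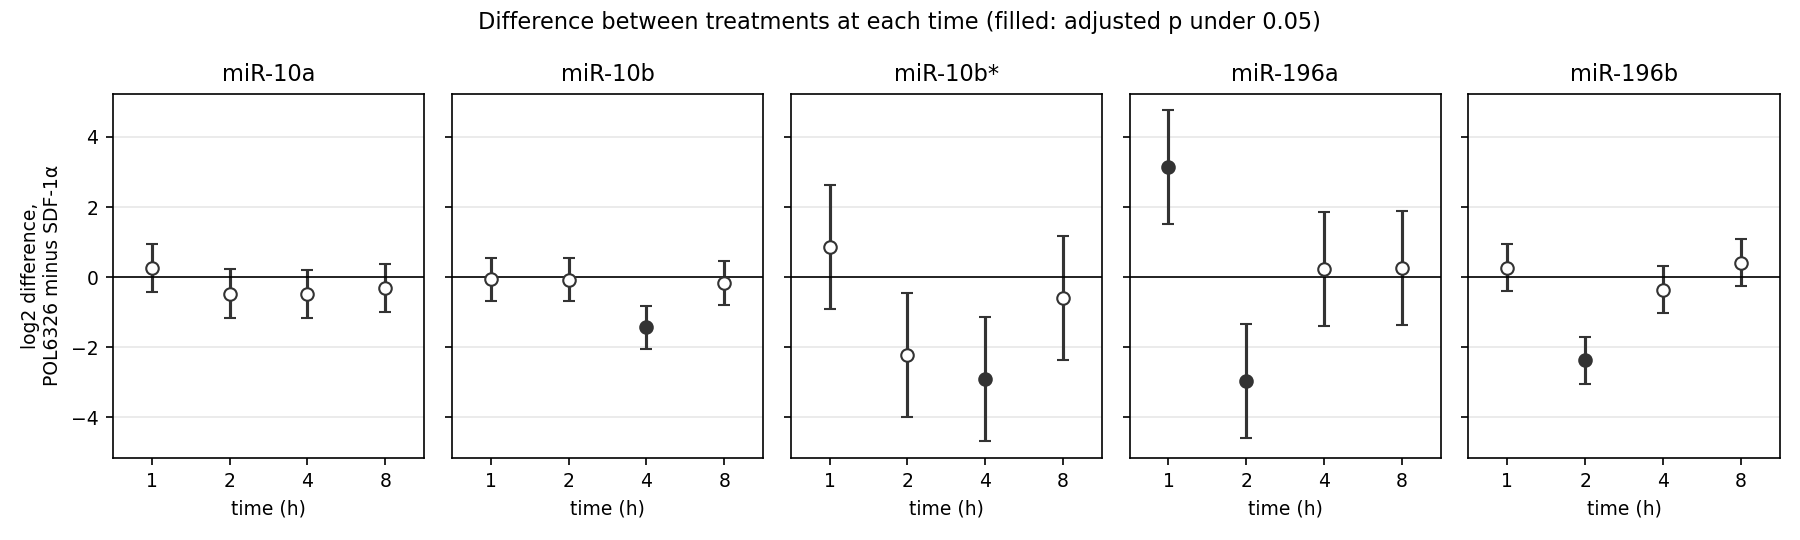
Log2 difference, POL6326 minus SDF-1α (vertical axis), of 5 mature HOX-embedded miRNAs at 1, 2, 4 and 8 h (horizontal axes), 3 arrays a group, with 95% confidence intervals of the limma fit; filled points have an adjusted p under 0.05. miR-196a is higher at 1 h and lower at 2 h, miR-196b is lower at 2 h, miR-10b and miR-10b* are lower at 4 h, and miR-10a passes at no time; fitted values of miR-196a and miR-196b include arrays at the floor.

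Tests over time asked whether a member changed within a treatment. With SDF-1α, miR-196b was the 1 member of 7 that changed over the 4 times (limma F-test, adjusted p = 0.0001), against 5.68% of all probes. At SDF-1α 1 h the detection limits, 6.88 to 7.42, lay above most of its 2 h signals (6.54, 6.96 and 6.65). Floor values at 1 h thus do not show a lower level than at 2 h. At 8 h the limits, 4.37 to 5.22, lay under those signals and all 3 arrays were at the floor. With POL6326, 3 of 7 changed, miR-10b (limma adjusted p = 0.0044), miR-10b* (0.0436) and miR-196a (0.0415), against 13.6% of all probes. The calls on miR-10b, miR-10b* and miR-196a were kept in 27, 9 and 14 of the 27 fits that left out 1 array. Without the 4 h arrays none of those 3 passed, with limma adjusted p = 0.195, 0.0985 and 0.0509. None of the 3 passed with the detection covariate either (limma adjusted p = 0.293, 0.266 and 0.0878). The treatment by time interaction was called for 2 of 7 members, miR-196a (limma adjusted p = 0.0178) and miR-196b (0.0027), against 3.88% of all probes. That on miR-196a ended with 1 common detection limit (limma adjusted p = 0.526) and without the 1 h arrays (0.134). For miR-10a the interaction was not called (limma adjusted p = 0.559).

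Among the 4 other HOX-embedded probes, 2 were lower with POL6326 than with SDF-1α at 4 h, where 6.07% of all probes were called lower and 15.6% lay lower without overlap. The mir-196a-1 precursor probe, for the HOXB-cluster hairpin MIR196A1, read 9.83, 9.69 and 9.59 with SDF-1α and 8.59, 9.07 and 9.09 with POL6326. The groups did not overlap, and the difference was -0.79 (SE 0.22, limma adjusted p = 0.0286). It ended without SDF-1α 4 h array 1 or 2 or POL6326 4 h array 1 (limma adjusted p = 0.0841, 0.0625 and 0.152). The miR-615-3p probe, from a hairpin within the HOXC cluster, read 8.88, 8.92 and 9.06 with SDF-1α and 7.95, 8.46 and 8.58 with POL6326. Its groups did not overlap, with a difference of -0.63 (SE 0.17, limma adjusted p = 0.0293) that ended without SDF-1α 4 h array 1, 2 or 3 or POL6326 4 h array 1 (limma adjusted p = 0.0551, 0.0609, 0.0826 and 0.181).

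These 2 probes had correlations of -0.94 and -0.81 with the count of detected probes over 27 arrays. With that number as a covariate their 4 h differences were -0.22 and -0.22 (limma adjusted p = 0.460 and 0.493). The mir-196a-1 precursor also differed over the mean of 4 times, by -0.36 (SE 0.11, limma adjusted p = 0.0369), a call kept in 12 of 27 fits without 1 array and lost with the detection covariate (limma adjusted p = 0.259), without the 1 h arrays (0.0774) and without the 4 h arrays (0.412). Over time with POL6326, 3 of the 4 changed, the mir-196a-1 precursor, miR-615-3p and the mir-196b precursor (limma adjusted p = 0.0152, 0.0202 and 0.0376), against 13.6% of all probes. All 3 calls ended with the detection covariate (limma adjusted p = 0.661, 0.670 and 0.287) and without the 4 h arrays (0.384, 0.571 and 0.0851). That on the mir-196b precursor also ended with median centring (0.526), quantile normalization (0.191), the dim-probe filter (0.136) and only the groups compared (0.0836), and that on miR-615-3p without the 1 h arrays (0.0604). Without POL6326 4 h array 1 the adjusted p of the first was 0.0758 and of miR-615-3p 0.127, and the call on the mir-196b precursor was kept in 18 of 27 fits without 1 array. The mir-196b precursor probe stayed between 9.51 and 10.19 on all 27 arrays and was called in no comparison between treatments or with control, including 2 h, where mature miR-196b was called. The miR-615-5p probe was above the floor on 13 arrays and was called in no comparison.

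**Figure D5:**
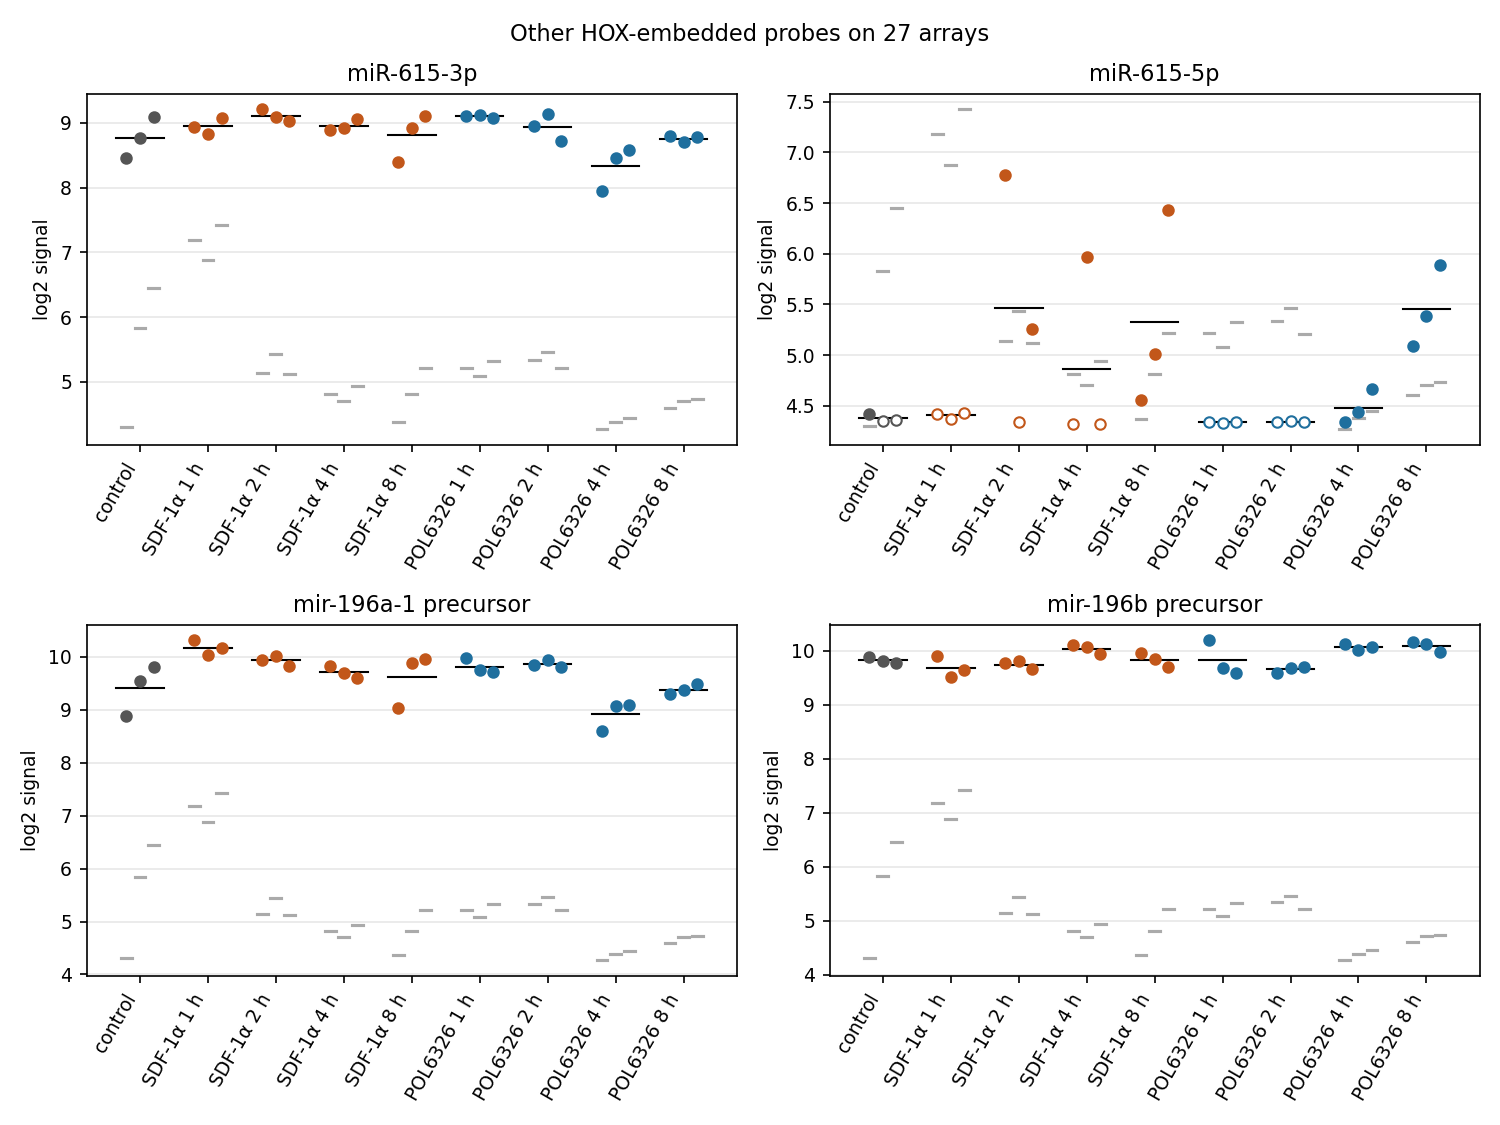
Log2 signal (vertical axes, which do not start at 0) of the 4 other HOX-embedded probes on 27 arrays in 9 groups (horizontal axes). Filled points are above the floor, open points at or under it, black lines are group means and grey lines the detection limits; miR-615-3p and the mir-196a-1 precursor have their lowest group mean at POL6326 4 h, and the mir-196b precursor lies between 9.51 and 10.19.

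The members did not follow 1 course. Over 27 arrays, which share their normalization and detection, the highest Pearson correlation between members above the floor on at least 8 arrays was 0.72, for miR-10b with miR-10b*, strands of 1 hairpin. miR-10a and miR-10b had 0.18, and miR-196a and miR-196b 0.34. Over the 9 group means, the mature probes most like miR-10a among 274 were miR-15b (0.83), miR-30c (0.81) and miR-30a (0.80). For miR-10b they were miR-16 (0.95), miR-26b (0.94) and miR-191 (0.93), and for miR-10b* miR-26b (0.96), miR-155 (0.86) and miR-20a (0.84). For miR-196a they were miR-124* (0.84), a Plus/Minus probe of miR-133b (0.72), a mark the labels do not define, and miR-629* (0.70). The median POL6326 minus SDF-1α difference over the 7 members was -0.24 for the mean of 4 times, against -0.03 over all 774 probes. At 1, 2, 4 and 8 h it was 0.27, -0.46, -0.35 and 0.00, against -0.07, 0.01, -0.04 and 0.00 over all probes.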

How the data were processed

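Total RNA of 27 samples of OCI-AML3 cells was reverse transcribed with a biotin-carrying random-end primer and hybridised to a miRNA chip, per the labels' protocols. The authors deposited 1 table of processed signals for 784 probes, read here as log2 signals from their range. For scanner software, background correction and normalization, the method is not given in the sources used here, and all arrays share 1 maximum. The 10 control probes were left out. Deposited signals of the other 774 probes were fitted without further normalization in R 4.3.3 with limma 3.58.1 (lmFit, eBayes), with 1 mean for each of 9 groups over all 27 arrays, two-sided, and Benjamini-Hochberg adjustment over 774 probes in each comparison, threshold 0.05. An array's floor was its most frequent value (tolerance 1e-04). A group at the floor on all arrays gives only a bound, the other group's mean over the mean of the higher of each floor array's detection limit and its own value. Every member is named, every other HOX-embedded probe is counted, and those past the threshold are named. As likest patterns, the 3 mature probes with the highest Pearson correlation over group means are named, for members above the floor on at least 14 arrays. Members, lists and tests were chosen with earlier results of these data known. Alternatives were other scalings, filters on dim probes, a detection covariate, fewer groups or times, limma's trend and robust options, a replicate block and leaving out each array. The fit was tested on simulated data without a floor or detection limits, so that test does not cover probes near the floor. The number of arrays limits the precision, and an array's detection limit, 4.27 to 7.42, bounds what it can show of dim probes.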

Additional observations from a re-analysis of the deposited data

Results flagged for a closer look

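Both miR-196 members are listed because their POL6326 minus SDF-1α difference itself changed between times, by the interaction test. For miR-196a the log2 difference was 3.13, -2.96, 0.23 and 0.26 at 1, 2, 4 and 8 h (limma adjusted p = 0.0178 for the interaction, n = 3 arrays a group). At 1 h all 3 POL6326 arrays were above the floor and all 3 SDF-1α arrays at it, and at 2 h the reverse. The 1 h and 2 h values are thus fitted against arrays at the floor. They give only bounds, at least 1.30-fold higher with POL6326 at 1 h and at least 3.92-fold lower at 2 h. The detection limit of SDF-1α 1 h array 3, 7.42, lay above POL6326 1 h array 2 at 7.39. For miR-196b the log2 difference was 0.27, -2.37, -0.35 and 0.41 (limma adjusted p = 0.0027 for the interaction, n = 3 arrays a group). Signal was above the floor in both treatments at 4 h only, so the values at 1 h and 8 h are fitted against arrays at the floor and give no size. The 2 h value is also fitted against arrays at the floor and gives only a bound, at least 2.60-fold lower with POL6326. Both interactions kept adjusted p under 0.05 without any 1 of the 27 arrays, up to 0.0454 for miR-196a and 0.0137 for miR-196b. That of miR-196a no longer passed with 1 common detection limit (limma adjusted p = 0.526) or without the 1 h arrays (0.134). The cause of either pattern was not tested. In no group of 3 arrays was a single array tested as an outlier.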

How the results depend on the processing

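Counts below are of members past the threshold, out of 7, as reported and then under the alternative, and the cause of a change was not tested unless stated. With each array centred on its median, which moved the median of all probes by up to 0.33, the counts went from 1 to 4 (POL6326 minus SDF-1α, mean of 4 times), 0 to 1 (8 h), 1 to 2 (POL6326 mean minus control), 2 to 1 (SDF-1α 2 h minus control), 1 to 0 (SDF-1α 8 h and POL6326 1 h), 1 to 3 (POL6326 4 h), 1 to 4 (POL6326 8 h), 3 to 5 (time with POL6326) and 2 to 4 (interaction). The 8 h call can only be miR-10a* or miR-196a*. The other members had a limma adjusted p of at least 0.186 there in every alternative. The counts for the mean, time with POL6326 and the interaction also include calls on miR-10a* or miR-196a*. Those probes were above the floor on 5 and 2 of 27 arrays, so such calls compare mostly floor values. miR-10b at 1 h turned to 0.0075 and miR-196a at 4 h and 8 h to -0.069 and -0.071. With quantile normalization they went from 1 to 3 (mean), 2 to 1 (2 h and SDF-1α 2 h), 1 to 2 (POL6326 mean and 8 h) and 1 to 0 (SDF-1α 8 h and POL6326 1 h). There miR-10b turned to 0.015 at 2 h and 0.065 for SDF-1α 1 h minus control. Leaving out probes that sat at the floor in over 50% of arrays, which keeps 340 probes and 4 members, they went from 1 to 2 (mean, POL6326 mean, 1, 4 and 8 h), 2 to 1 (2 h, SDF-1α 2 h and interaction) and 1 to 0 (time with SDF-1α). With the count of detected probes as a covariate they went from 1 to 0 (mean, 1 h and SDF-1α 1 h), 2 to 0 (4 h), 1 to 2 (POL6326 mean, SDF-1α 8 h and POL6326 8 h), 2 to 1 (SDF-1α 2 h) and 3 to 0 (time with POL6326). miR-196a turned to -0.16 for the mean and -0.52 at 4 h, and miR-10b to 0.37 at 1 h. With only the groups compared they went to 0 (mean, SDF-1α 1 and 8 h, POL6326 1, 2, 4 and 8 h) and from 2 to 1 (4 h), with fewer arrays for the spread. Without the 1 h arrays they were 2 (mean), 0 (SDF-1α mean), 2 (POL6326 mean), 1 (time with POL6326) and 1 (interaction), and miR-196a turned to -0.83. Without the 4 h arrays they were 0 (mean) and 0 (time with POL6326). With signals raised to a common limit of 7.42, which keeps 274 probes and 4 members, they were 0 (1 h), 0 (2 h), 1 (4 h), 2 (POL6326 mean, SDF-1α 8 h, POL6326 4 h and 8 h), 1 (SDF-1α 2 h), 0 (time with SDF-1α), 1 (time with POL6326) and 1 (interaction). miR-10b* at 1 h turned to -0.14. With limma's trend and robust options the POL6326 mean gave 2, and with values under the floor raised to it time with SDF-1α gave 3. Those 3 were miR-196b, miR-196a (limma adjusted p = 0.0409) and either miR-10a* or miR-196a*. For miR-10a, miR-10b and miR-10b* the lowest limma adjusted p of that test over the 11 alternative settings was 0.113. In that treatment only the 4 h array 2 detected miR-10a*, and no array detected miR-196a*. The star-strand call thus rests mostly on differences between array floors.

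Leaving out 1 array at a time gave 0 to 1 members for the mean, 1 h, SDF-1α mean, SDF-1α 1 h and SDF-1α 8 h, 1 to 3 at 2 h, 1 to 2 at 4 h, 0 at 8 h and SDF-1α 4 h, 1 to 2 for POL6326 mean and SDF-1α 2 h, 0 to 2 for POL6326 1 h, 1 for POL6326 2 h, 1 to 4 for POL6326 4 h, 0 to 3 for POL6326 8 h, 1 to 3 for either time test and 2 to 3 for the interaction. Where the time test with SDF-1α gave 3, miR-10a* or miR-196a* was among them. The differences that changed sign were those of miR-196a for the mean (-0.026 to 0.40), at 4 h (-0.48 to 0.83) and at 8 h (-0.50 to 1.19), miR-10b* at 1 h (-0.46 to 1.58), miR-10b at 1 h (-0.14 to 0.084), 2 h (-0.18 to 0.026) and 8 h (-0.51 to 0.048) and for SDF-1α 1 h minus control (-0.38 to 0.016), and miR-196b at 4 h (-0.58 to 0.094) and 8 h (-0.0056 to 0.62). None of these was called. Of 108 same-numbered pairs of arrays, 27 had a correlation of deviations over 0.1, the highest being 0.72. Their mean was 0.059, against -0.028 for pairs with different numbers. Whether replicate numbers pair the arrays cannot be told from these values. With the replicate block the counts were 1 (SDF-1α 2 h), 0 (SDF-1α 8 h), 0 (POL6326 1 h) and 1 (time with POL6326). Over all probes the count for the mean ranged from 39 to 310 around 76, at 4 h from 9 to 318 around 76, and at 8 h from 0 to 208 around 8. Signal over background limits miR-196a, miR-196b and all 3 star strands, whose levels under an array's detection limit are unknown.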
